A study of Mus musculus with 2 samples.

Results

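Inmt-expressing fibroblasts of the normal mouse pancreas were the cells that carried fibroblast matrix genes and at least 3 unique transcripts (UMIs) of Inmt per 10000 UMIs. A cell of the normal library was chosen if it had 500 or more genes, 1000 or more UMIs and a mitochondrial share of up to 10%, and if Col1a1, Col1a2, Col3a1, Dcn and Lum together reached 50 per 10000 UMIs. The mural genes Rgs5 and Myh11 had to stay below 5 per 10000, the genes Ptprc, Pecam1 and Cdh5 at no more than 1 UMI, and the adventitial genes Sema3c, Dpp4, Efhd1 and Pcsk6 together below 5 per 10000. This left 107 cells of 1496 normal fibroblasts, or 7.15% (exact binomial 95% interval 5.90 to 8.58), among 4616 normal cells and 7189 cells of both libraries. They were set against 927 other non-adventitial fibroblasts of the same library, which met every condition except the one on Inmt, against 462 adventitial fibroblasts, and against 2258 fibroblasts of the tumour library, of which 123 passed the whole rule.

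The study sequenced single cells of Rosa26-mTmG;Fabp4-Cre mice, in which Cre under the Fabp4 promoter switches a cell and its descendants from red to green fluorescence. The normal library holds GFP-positive cells labelled as pancreatic stellate cells, from pancreata of mice 6 to 9 weeks old that were digested with pronase, collagenase P and DNase. The tumour library holds cells labelled as cancer-associated fibroblasts, sorted for GFP and PDPN 21 days after FC1245 pancreatic cancer cells were implanted into the pancreas of mice 8 weeks old, with a digestion in collagenase IV, dispase and DNase and then trypsin. Every mouse carried the reporter and the Cre, so no group is free of either, and the label marks a lineage history and not the current activity of Fabp4. Each group is 1 library, with no replicate: intervals cover counting error only, no test between groups was possible, and tumour, digestion, gate, sex and age cannot be told apart.

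Inmt encodes indolethylamine N-methyltransferase, an enzyme that moves a methyl group from S-adenosylmethionine to tryptamine and other small amines, and it is known as a marker of lung fibroblasts. Pancreatic fibroblasts are usually divided into adventitial cells around vessels and ducts, which make Pi16 and Dpp4, and parenchymal cells between the acini, which make basement membrane. Stellate cells are the vitamin A storing cells of the parenchyma and are usually placed in the latter kind.

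Inmt itself drew no line between 2 kinds of cell. Inmt lies on chromosome 6 (mm10, 55170626 to 55175043, minus strand). Among the Inmt-expressing cells its level ran from 3.02 to 18.97 per 10000 UMIs with a median of 5.54, values that the rule fixed. Near the threshold the cells formed a continuum: the lowest chosen cell had 3.02 and the highest cell left out had 2.94, with 26 chosen cells between 3 and 4 and 60 cells left out between 2 and 3. The call rested on few molecules, since 5 of the 107 cells had 1 Inmt UMI, 15 had 2, 21 had 3, 22 had 4 and 44 had 5 or more. The plot of Inmt per cell shows this band above the line with no gap at the threshold.

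**Figure D1:**
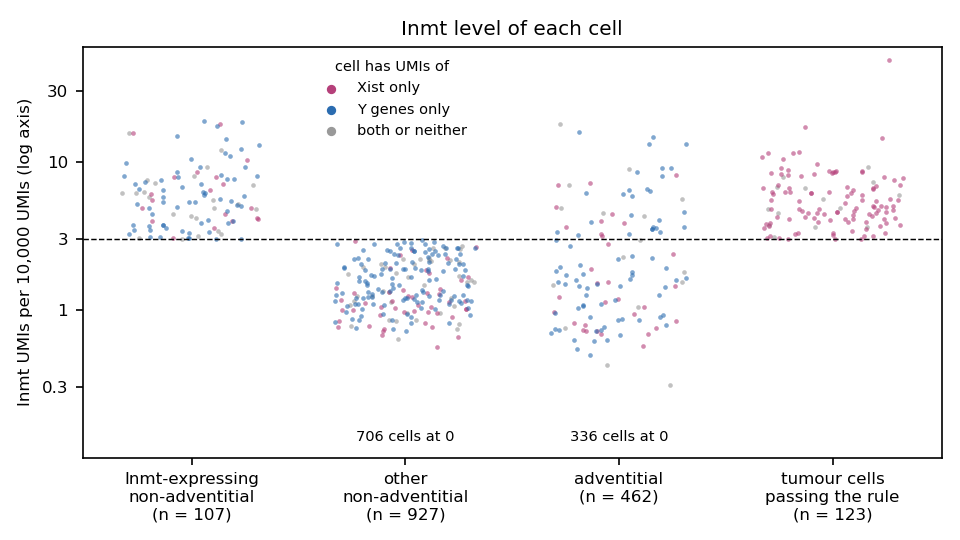
Inmt UMIs per 10,000 UMIs of each cell (log axis) in 4 groups of fibroblasts, coloured by the cell's sex-linked transcripts. The dashed line is the threshold of 3, and cells without an Inmt UMI are given as a number. The 107 chosen cells run from 3.02 to 18.97, and 60 others lie between 2 and 3.

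To compare cells at 1 depth, each was thinned to 5000 UMIs, which left out 135 of the 1034 non-adventitial normal fibroblasts. Of the 899 that remained, 674 had no Inmt UMI, 120 had 1, 49 had 2, 22 had 3 and 34 had 4 or more. The variance of this count was 3.43 times its mean, while 1399 genes of a like mean had a median ratio of 1.08 and a 95th percentile of 1.48. Inmt was thus more unevenly spread over these cells than most genes of its level, with 21 of the 1399 genes above it. Inmt was rare in other cells of the same library. In macrophage-marker cells, which should lack the gene, 1 of 1373 cells had an Inmt UMI (median depth 8211 UMIs). Of the endothelial-marker cells 18 of 1383 did (median depth 4300), against 221 of 927 other non-adventitial fibroblasts (median depth 8049). These counts do not cover free RNA of other genes.

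The chosen cells carried the fibroblast genes that define the class. As counts per 1000000 UMIs over the summed cells (CPM), Dcn stood at 18096 (95% interval 17809 to 18387) in Inmt-expressing cells and 16336 in the others, Col1a1 at 1933 and 2110, and Pdgfra, the platelet-derived growth factor receptor of fibroblasts, at 667 (613 to 725) and 602 (585 to 620). Pdgfra, which the rule did not use, was found in 91.6% and 94.5% of cells. Their most abundant genes were Malat1 at 63594 CPM, the actin-severing protein gelsolin (Gsn) at 18742 and Dcn. Of the markers for other cells, 11 of 12 mesothelial, 6 of 12 endothelial and 6 of 6 erythroid genes had no UMI in the 107 cells, where the rule itself limited the endothelial genes Pecam1 and Cdh5. Only 1 of 16 acinar and 2 of 13 macrophage markers had none, and 73 of the 107 cells had over 5 acinar UMIs per 10000. Pericyte markers summed to 348 CPM and stellate markers to 488 CPM, beside 409 and 479 in the other non-adventitial fibroblasts and 43.6 and 268 in the adventitial ones.

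No cluster held mainly these cells. When the 1496 fibroblasts were clustered without the genes of the rule, 8 clusters formed, and the Inmt-expressing cells made up 8.52% (34 of 399) of cluster 1, 11.0% (40 of 365) of cluster 2, 4.08% (10 of 245) of cluster 3 and 14.6% (13 of 89; 8.01 to 23.7) of cluster 6. Cluster 6 was led by the acute phase gene Hp and the complement gene C4b, cluster 2 by Cntfr and Mylk, and cluster 1 by Apod and Cyp4b1. Clusters 4 and 5, mostly adventitial, held 9 of 234 and 1 of 126. Clusters 7 and 8 held none of 22 and none of 16, which allows up to 15.4% and 20.6%. Cluster 7 was led by Clec10a and carried 14567 CPM of macrophage markers, and cluster 8 was led by the mesothelial genes Upk3b and Slpi. At other resolutions, or with the genes of the rule kept, the highest share in any cluster of at least 20 cells was between 10.8% and 15.1%. They are therefore described below by the rule that chose them.

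**Figure D2:**
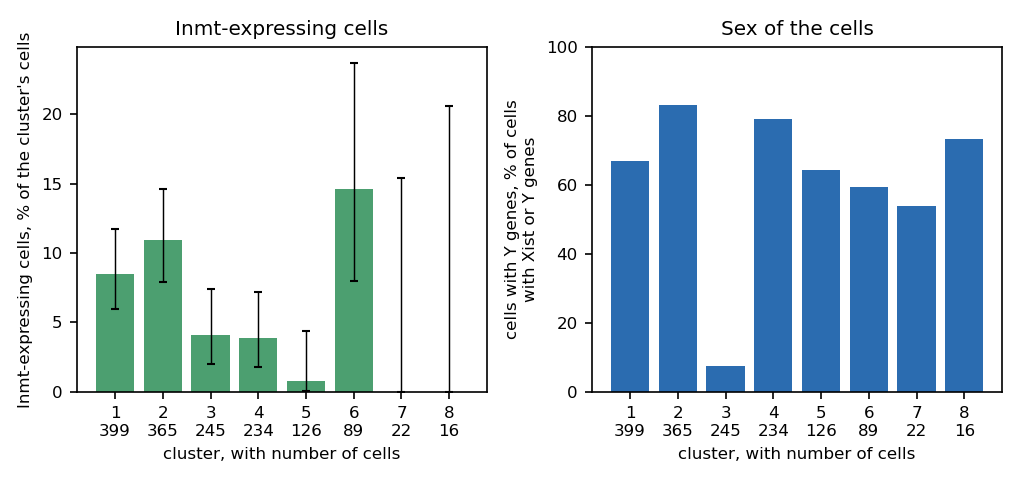
Left, Inmt-expressing cells as a percentage of each cluster of normal fibroblasts, with exact binomial 95% intervals. Right, cells with UMIs of Y-linked genes as a percentage of cells with either Xist or Y-linked UMIs. The highest share of Inmt-expressing cells is 14.6%, in cluster 6, and cluster 3 is 7.36% Y cells.

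The sex of the cells moved with the choice. The normal library pooled at least 1 female and 1 male, since some cells had UMIs of Xist and none of 4 Y-linked genes and others the reverse. Of the Inmt-expressing cells 65 were Y cells and 19 Xist cells (77.4% Y), against 407 and 347 of the others (54%). Among the non-adventitial fibroblasts 13.8% of Y cells were chosen (65 of 472; 10.8 to 17.2) and 5.19% of Xist cells (19 of 366; 3.15 to 7.99). Inmt itself stood at 142 CPM in non-adventitial Y cells and 53.3 in Xist cells, a 2.67-fold difference (2.25 to 3.2). Adventitial fibroblasts showed 68.4 CPM in Y and 56.4 in Xist cells. How many mice gave each sex is not given in the sources used here, so sex and individual animals cannot be told apart. Among the non-adventitial fibroblasts as a whole, 19 of 3605 genes were called higher in Y cells (0.527%) and 10 lower (0.277%), and Gdf10 and Ramp1 were among the higher ones. No cell of the tumour library had Y-linked UMIs without Xist.

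Against the other non-adventitial fibroblasts, the Inmt-expressing cells had a small set of higher genes. Gdf10, Sfrp1 and Fbln1 are described first because their UMIs were spread over many cells, while several genes with higher folds rested on few. Gdf10, a secreted protein of the BMP family, stood at 496 CPM (449 to 546) against 224 (214 to 235), 2.21-fold, and was found in 76.6% against 59.7% of cells. Sfrp1, a secreted Wnt inhibitor, stood at 293 CPM (258 to 332) against 96.8, 3.03-fold, in 51.4% against 34.6% of cells. Fbln1, an extracellular matrix fibulin, stood at 497 CPM (450 to 547) against 218, 2.28-fold, in 72.0% against 58.8%. A gene was called where one of the sums reached 50 CPM, the fold was 2 or more and its interval excluded 1. By this rule 25 of 3598 genes were higher (0.695%), Inmt included, and 27 were lower (0.75%). These cells were chosen in the same data on Inmt, so the folds describe them and were not tested. The median log2 fold of all 6893 genes with at least 20 CPM was -0.05. With the Inmt threshold at 1 per 10000 in place of 3, 10 genes were higher and 13 lower, and at 6 these were 54 and 84. Sfrp1 stayed above 2-fold in each alternative, with log2 folds from 1.27 to 2.80, while Gdf10 had 0.93 with a stricter adventitial limit and Fbln1 0.54 with the Inmt threshold at 1.

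Of 16 tested growth factor and binding protein genes Figf and Fst were called higher and none lower (median log2 fold 0.27), and of 8 tested Wnt, BMP and hedgehog genes Sfrp1 and Gdf10 were (-0.05). Figf, the lymphatic growth factor VEGF-D, stood at 80.2 CPM against 36, 2.23-fold (1.68 to 2.92), and was found in 33.6% against 16.4% of cells. Fst, the activin-binding follistatin, stood at 142 against 53.5 CPM, 2.66-fold (2.15 to 3.27). Pcsk5, a proprotein convertase, stood at 91.0 against 37.1 CPM. C7, a terminal complement component, had a fold of 6.28 (4.28 to 9.17) from 58.7 against 9.34 CPM, but 3 cells held 55.1% of its UMIs.

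Of 25 tested receptor and channel genes on the list only Dlk1 was called, with a median log2 fold of -0.01. Receptors outside the list were among the called genes. Prlr, the prolactin receptor, stood at 51.5 against 12.9 CPM, 4.0-fold (2.72 to 5.77), with 37.2% of its UMIs in 3 cells. Ackr3, a scavenging receptor of the chemokine CXCL12, stood at 80.2 against 23.3 CPM, 3.45-fold. Adgrd1, an adhesion G protein-coupled receptor, stood at 62.3 against 25.5 CPM. Ramp1, part of the receptor for calcitonin gene-related peptide, stood at 98.2 against 48.8 CPM, 2.01-fold (1.56 to 2.56), in 43.9% against 26.0% of cells. Ackr3 and Adgrd1 were both higher still in adventitial fibroblasts, at 698 and 376 CPM.

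Enzymes and matrix proteins followed. Galnt15, which starts O-linked glycans, stood at 68.3 against 33.4 CPM and was the most evenly spread of the 24 higher genes besides Inmt, with 15.8% of its UMIs in 3 cells. Olfml2b, an olfactomedin-like matrix protein, stood at 93.4 against 42.1 CPM. Lrrn4cl and the peptidase inhibitor gene Pi15 stood at 67.1 against 31.7 and at 61.1 against 27.7 CPM. For Ugdh, which makes a precursor of hyaluronan, 3 cells held 48.2% of the UMIs, and for Mmp3, a matrix protease, 53.7%.

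The remaining genes were concentrated in few cells. Ptgs2, the inducible cyclooxygenase, stood at 147 against 39.8 CPM, 3.70-fold, with 71.5% of its UMIs in 3 cells. The early response gene Ier3 (56.6%), the transcription factor gene Maff (52.2%), the adventitial gene Pi16 (54.8%) and the imprinted Notch-like gene Dlk1 (44.2%) were alike in this. Cdkn1a, the cell cycle inhibitor p21, stood at 205 against 57.9 CPM, 3.54-fold, with 32.2% of UMIs in 3 cells, and Csrp2, a LIM domain protein, at 138 against 63.9 CPM with 34.8%. Of the 27 measured dissociation and immediate early genes with at least 50 CPM, only Ier3 passed the rule of 2-fold. In adventitial cells below the Inmt threshold, Figf, Pcsk5, Olfml2b, Lrrn4cl, Pi15, Ugdh, Ptgs2, Csrp2 and Pi16 were also higher than in Inmt-expressing cells. Figf stood there at 139 CPM, Pcsk5 at 154, Olfml2b at 148, Ptgs2 at 303 and Csrp2 at 367. The other higher genes, Ackr3 and Adgrd1 aside, were lower there.

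**Figure D3:**
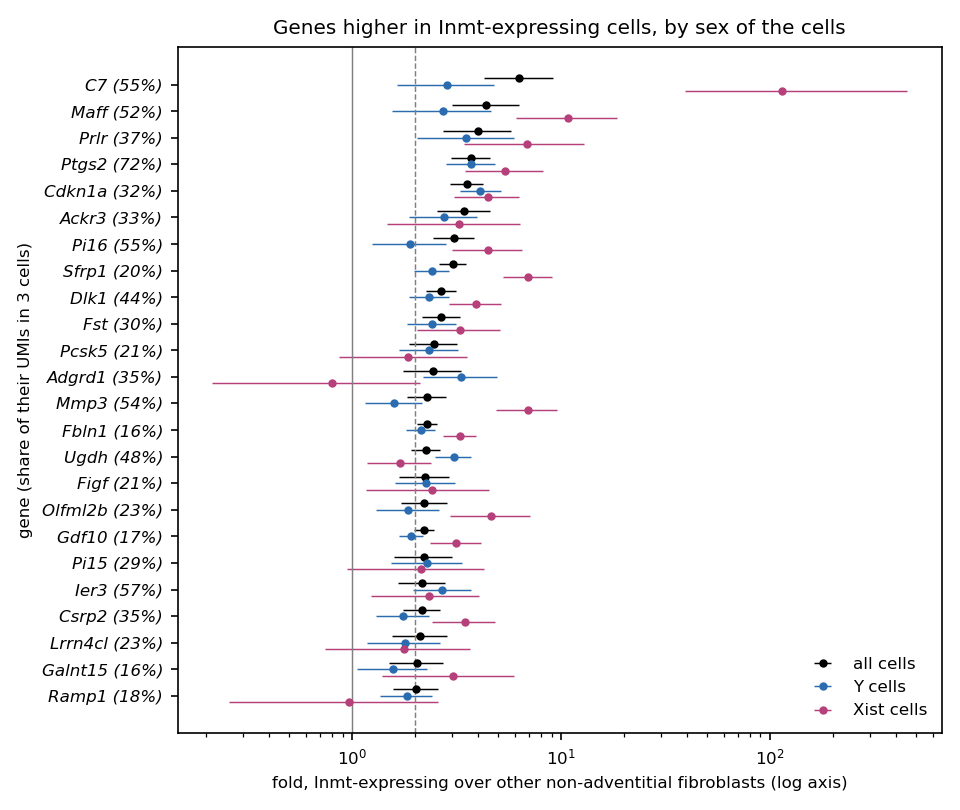
Fold of each higher gene except Inmt (log axis), Inmt-expressing over other non-adventitial fibroblasts, over all cells, within Y cells and within Xist cells, with 95% counting intervals. The percentage beside a gene is the share of its UMIs in the Inmt-expressing cells that 3 cells hold. All 24 genes lie above 1 in Y cells and 22 in Xist cells.

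The same cells were then split by sex, which is no separate evidence, since the genes were chosen on these cells, most of them Y. Of the 25 higher genes, Inmt included, 25 were higher in Y cells (65 against 407) and 23 in Xist cells (19 against 347), where Ramp1 and Adgrd1 were not. Gdf10 was 1.91-fold higher (1.68 to 2.18) in Y and 3.15-fold (2.36 to 4.14) in Xist cells, Sfrp1 2.41-fold and 6.96-fold, and Fbln1 2.14-fold and 3.27-fold. The C7 fold of 114 in Xist cells (39.3 to 454) rests on 19 cells. With the whole rule for calls applied in Y cells alone, 20 of 3634 genes were higher (0.55%) and 31 lower (0.853%), of which 14 and 16 were among those called over all cells. In Xist cells alone 140 of 3978 genes were higher (3.52%) and 142 lower (3.57%), with 19 and 13 of the earlier calls among them.

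Levels were also set out along Inmt. Cells left out by the rule were split into 706 with no Inmt UMI and 221 with some, whose median depths were 7736 and 8944 UMIs. Gdf10 stood at 183 CPM in the first, 338 in the second and 496 in the Inmt-expressing cells, Sfrp1 at 73.7, 160 and 293, and Fst at 40.8, 88.2 and 142. Of the 25 higher genes, Inmt included, 23 had their middle level in the middle cells, and Csrp2 and Mmp3 did not. Of the 27 lower genes 17 did. The genes had been chosen for their difference between the Inmt-expressing cells and the rest, which favours such an order. Fbln1 was flat below the threshold, at 214 and 229 CPM, before 497.

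The same split on Inmt was then made in the adventitial fibroblasts and in the non-adventitial fibroblasts of the tumour library. This comparison was added after the first results were seen. Gdf10 was higher in both of these sets. Among adventitial fibroblasts, 44 cells had Inmt at 3 per 10000 or more and 418 had less, and Gdf10 stood at 288 against 74.7 CPM, 3.86-fold (3.16 to 4.69). Adventitial genes moved with this split too: Pi16 stood at 1438 against 2698 CPM and Nov at 78.3 against 514, and their part in the result was not tested. In the tumour library, 123 cells that passed the whole rule had 745 CPM of Gdf10 against 148 in 2017 other non-adventitial cells, 5.02-fold (4.60 to 5.48). The 123 cells had a median depth of 6069 UMIs against 10706 in the 2017, and the part of depth in the folds was not tested. Sfrp1 was 4.64-fold higher (3.83 to 5.59) in the adventitial cells with Inmt, at 330 against 71.1 CPM, but lower in the tumour cells that passed the rule, at 507 against 789 CPM. Fbln1 was 3.26-fold higher (2.87 to 3.71) in the adventitial and 1.47-fold (1.33 to 1.62) in the tumour set. Prlr was 3.22-fold (2.07 to 4.87) and 3.57-fold (1.90 to 6.20) higher, the second from 14 UMIs.

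Of the 24 higher genes other than Inmt 22 were tested among adventitial cells, and 8 were called higher (2.15% of 3347 genes; 2.39% lower), namely Ramp1, Sfrp1, Gdf10, C7, Prlr, Maff, Fbln1 and Cdkn1a, and none was called lower. In the tumour library 21 were tested and 3 called higher (5.17% of 3266 genes; 6.61% lower), namely Galnt15, Gdf10 and Lrrn4cl, and Adgrd1 and Csrp2 were called lower. Only Gdf10 was called higher in both sets. Of the 27 lower genes 14 were tested among adventitial cells, with 7 called lower and 2, Rasl11a and Has1, called higher. In the tumour library 13 were tested and 2 called lower, Timp1 and Ndufa4l2, and 9 of the 27 were counted with the same direction. Slpi, Car3, C1qb, Pf4 and Wfdc17, not among the 9, had no UMI in the tumour cells that passed the rule. The floor put their folds above 1, so their direction there is not known. Galnt15 stood at 170 against 33.9 CPM in tumour cells, 5.01-fold (4.14 to 6.01), and at 57.7 against 43.5 CPM in adventitial ones, 1.33-fold (0.863 to 1.97). The adventitial set comes from the same library and mice as the first. The tumour set comes from other mice, and none of its cells had Y-linked UMIs without Xist.

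**Figure D4:**
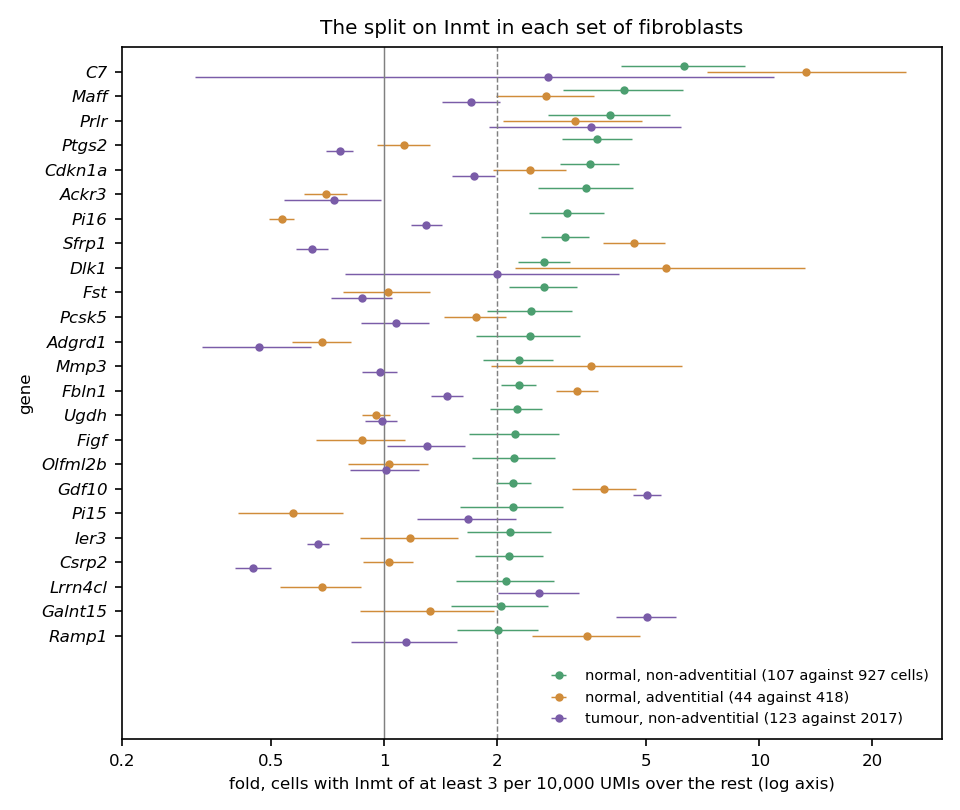
Fold (log axis, 95% counting intervals) of the 24 genes that were higher in Inmt-expressing cells, for cells with Inmt of at least 3 per 10,000 UMIs over the rest, in the set that the genes were chosen in and in adventitial and tumour fibroblasts. Gdf10 lies above 2 in each, while Sfrp1 is at 4.64 in adventitial and below 1 in tumour cells.

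Among the 27 lower genes were macrophage transcripts. The complement gene C1qa stood at 12 CPM (5.74 to 22) in Inmt-expressing cells against 79.4 in the others, Lyz2, a lysozyme, at 53.9 against 143, and Cd74, the invariant chain of MHC class II, at 18 against 101. All 4 tested macrophage markers were lower. The summed level of the 13 markers was 132 CPM in Inmt-expressing cells, 477 in the others and 405 in adventitial cells, with 2 of the 13 at 0. The median cell had 0.82 per 10000 among the Inmt-expressing cells and 0.95 among the others. Over 5 per 10000 were found in 4 of the 107 and 44 of the 927. No Inmt-expressing cell lay in cluster 7 and 15 of the others did. Scrublet called 14 of the 927 others and none of the 107 as doublets. Without cluster 7 the lower genes numbered 19, and the higher genes 25. Without it Lyz2, Wfdc17, Pf4 and Retnla had folds of 1 or above.

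Others are not markers of macrophages. Foxs1, a forkhead factor gene, stood at 23.9 CPM (14.6 to 37.0) against 63.1 and was found in 14% against 34.4% of cells. Tenm4, a teneurin of cell contacts, stood at 37.1 against 93.5 CPM, Ndufa4l2, a mitochondrial protein gene often used as a pericyte marker, at 75.4 against 157 CPM, and Tnfaip2 at 141 against 308 CPM. Cldn15, a claudin, stood at 51.5 against 104 CPM and Gnl3, a nucleolar protein gene, at 39.5 against 82.3. Timp1, an inhibitor of matrix proteases, stood at 27.5 against 63.0 CPM. Hp stood at 4.79 CPM, against 77.1 in other cells with no Inmt UMI and 35.3 in those with some. For Trf these were 40.7, 133 and 116 CPM. Hp, Trf, Fabp4 and Has1 were called lower, although they were leading genes of cluster 6, where the share of Inmt-expressing cells was highest. The other leading genes of that cluster were not called. Foxs1, Tenm4, Ndufa4l2 and Cldn15 were each lower again in adventitial cells, at 6.38, 4.36, 14.8 and 21.1 CPM. Fabp4, whose promoter drives the Cre, stood at 47.9 against 115 CPM. It was found in 14% against 12.9% of cells, and it is also an adipocyte marker. Fabp4 and Car3 were the adipocyte markers tested, and both were lower. The 9 adipocyte markers summed to 52.7 against 224 CPM, with 6 of the 9 at 0 in the Inmt-expressing cells. Few cells carried these UMIs: 2 of the 107 Inmt-expressing cells and 21 of the 927 others had over 5 per 10000. The highest cell had 27.9 per 10000 in the first group and 659 in the second. Slpi, a mesothelial marker, and Xist were called lower as well. Slpi was found in only 0.847% of the non-adventitial Y cells and 1.09% of the Xist cells. Of Y and Xist cells together, 77.4% were Y cells among the Inmt-expressing cells and 54% among the others.

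Most gene lists lay at the background of 1.45% of genes called in either direction. None of 21 parenchymal fibroblast genes was called (median log2 fold 0.00), nor any of 16 tested basement membrane genes (-0.17), 13 fibrillar and associated collagens (-0.18), 11 proteoglycans or 37 mesenchymal transcription factors (0.01). Of 18 tested adventitial genes 3 were called higher, Pi16, Ugdh and Ackr3, and Has1 lower, with a median of 0.38. Penk, the enkephalin precursor, and Gpc3, a glypican, were the highest of the parenchymal list, at 1231 against 751 CPM and 504 against 292.

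Other genes of methyl transfer were not called. Among 6 tested methyltransferase and methionine cycle genes only Inmt, the gene of the rule, was called. Mat2a, which makes S-adenosylmethionine, stood at 212 CPM (182 to 246) against 211 (200 to 221), and Nnmt, the nicotinamide methyltransferase, at 98.2 (78.1 to 122) against 143. Aoc3, an amine oxidase, stood at 144 (119 to 172) against 115 CPM. Of the 26 amine handling genes 15 had no UMI in the 107 cells.

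Adventitial fibroblasts differed more widely, and the rule itself separated them through 4 of their genes. Of 3632 genes 270 were higher in Inmt-expressing cells (7.43%) and 228 lower (6.28%). With TMM scaling, which moves the median log2 fold by -0.19, these were 210 and 289. Of 25 tested adventitial genes 23 were lower (median log2 fold -3.0), 4 of them genes of the rule. Sfrp2, a secreted Wnt modulator, had 2 UMIs in all Inmt-expressing cells (2.39 CPM) and stood at 175 CPM in adventitial cells. Nov, a matricellular CCN protein gene, stood at 9.58 against 478 CPM, Edn1, endothelin 1, at 3.59 against 145, and Pi16 at 125 (102 to 151) against 2595. Cmah, Limch1 and Sbsn were lower by over 20-fold, and Car8, Dact2, Krtdap, Ptx3 and Tnfrsf11b had at most 3 UMIs in all 107 cells.

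Parenchymal and basement membrane genes were on the other side. Of 21 parenchymal genes 14 were higher in Inmt-expressing than in adventitial cells (median log2 fold 1.44) and none lower, and of 16 basement membrane genes 9 were higher and none lower (1.29). Hsd11b1, which regenerates active glucocorticoid, stood at 1149 CPM (1078 to 1225) against 168, 6.86-fold, and the collagen IV gene Col4a1 at 3607 against 1327 CPM, 2.72-fold. Cxcl14, a chemokine, stood at 611 against 16.6 CPM, 36.8-fold (29.6 to 46.1), and Cntfr, the receptor of ciliary neurotrophic factor, at 70.6 against 1.01, 70.2-fold (30.4 to 199). Ptn, a heparin-binding growth factor gene, stood at 516 against 34.6 CPM, the myosin kinase gene Mylk at 144 against 9.90 and the laminin gene Lamc3 at 62.3 against 4.87. Mgp, matrix Gla protein, stood at 4924 against 859 CPM.

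The other non-adventitial cells had like levels of these genes. Hsd11b1 stood at 1210 CPM in them, Col4a1 at 4261, Cxcl14 at 733, Mylk at 205, Lamc3 at 78.4 and Mgp at 6378, in each case at or above the level of the Inmt-expressing cells. By contrast Gdf10 and Sfrp1 were also higher than in adventitial cells, 5.38-fold (4.72 to 6.12) and 3.18-fold (2.73 to 3.71). Within Y cells all 270 higher and 228 lower genes kept their direction, and within Xist cells 261 and 225. This is no separate evidence, since the genes were called on these same cells, most of them Y. Lamc3 was not among the 261.

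**Figure D5:**
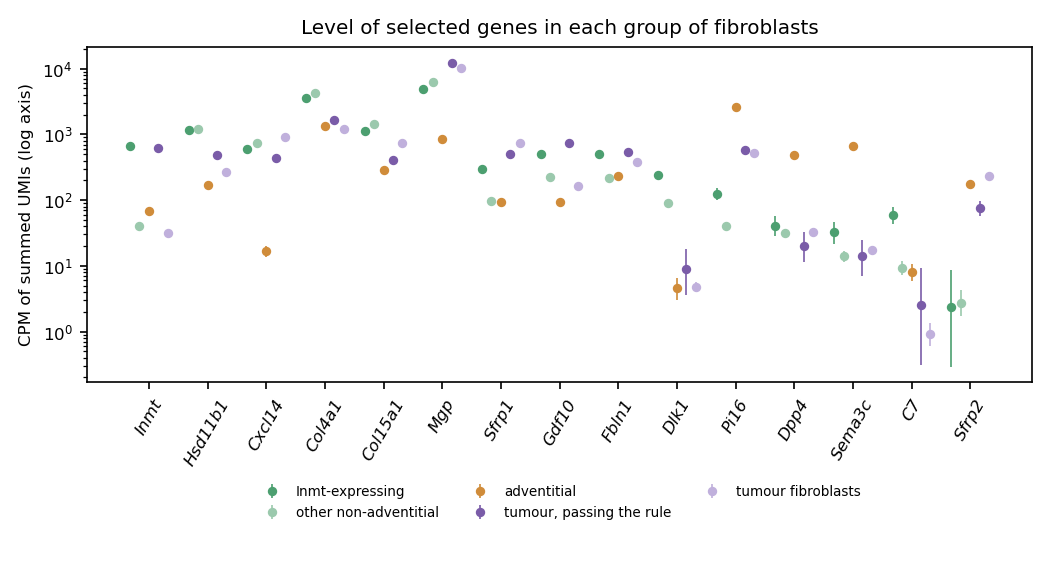
Level of 15 genes, as CPM of summed UMIs (log axis) with 95% Poisson intervals, in 5 groups of fibroblasts. A group with no UMI has no point. Inmt-expressing and other non-adventitial cells lie close for Hsd11b1, Cxcl14, Col4a1, Col15a1 and Mgp and apart for Sfrp1, Gdf10, Fbln1 and C7.

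Tumour fibroblasts had less Inmt, at 31.1 CPM (29.1 to 33.2) over 2258 cells against 89.2 over the 1496 normal fibroblasts, and 5.45% of them (4.55 to 6.46) passed the whole rule, beside 7.15% in the normal library. Over non-adventitial cells the shares were 5.75% (4.80 to 6.82) in the tumour and 5.19% (3.15 to 7.99) in the normal Xist cells alone, with overlapping intervals. The median depth was 10419 UMIs in the tumour and 9019 in the normal fibroblasts. At 5000 UMIs per cell, 11.4% of non-adventitial tumour cells had an Inmt UMI (9.97 to 13), against 25% (22.2 to 28) of the normal ones and 14.6% (11 to 18.9) of the normal Xist cells alone.

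Set against the Inmt-expressing cells, 407 of 3712 genes were higher in tumour fibroblasts (11%) and 489 lower (13.2%). With TMM scaling, which moves the median log2 fold by 0.47, these became 715 and 237. Of 17 tested contractile genes 8 were higher and none lower, and of 29 matricellular genes 15 were higher and 6 lower. Acta2, smooth muscle actin, stood at 468 CPM against 1 UMI in the 107 normal cells, and Tnc, tenascin C, at 694 CPM against 2 UMIs. Spp1, osteopontin, stood at 1028 CPM and had no UMI in the 107 cells, which gives a fold of at least 286 with 3 counts over the group as the floor. Timp1 stood at 1587 against 27.5 CPM, Il6 at 1246 against 23.9 and Col1a1 at 8302 against 1933.

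Basement membrane genes were lower in the tumour, with 13 of 16 called and a median log2 fold of -1.38. Col4a1 stood at 1213 CPM and Smoc2, a basement membrane protein of the SPARC family, at 290, against 3607 and 1755 in the Inmt-expressing cells. Gsn, at 2187 against 18742 CPM, and Abca8a, a lipid transporter, at 179 against 1478, were lower as well. Lower by over 10-fold were C7, Dlk1 at 4.73 against 238 CPM, Nmb, neuromedin B, at 10.4 against 163, and Hpgd, which degrades prostaglandins, at 9.01 against 157. Acinar transcripts also differed, since 16 acinar markers summed to 946 CPM in the Inmt-expressing cells and 115 in tumour fibroblasts. Whether these acinar transcripts were free RNA, and the part of free RNA in the other lower genes, was not tested.

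In tumour cells that passed the whole rule, 340 of 3680 genes were higher (9.24%) and 431 lower (11.7%) than in the 107 normal cells. The tumour cells had 3.8 CPM of Acta2 (0.784 to 11.1), 7.6 of Tnc (2.79 to 16.5) and 2.53 of Spp1. The matricellular list as a whole summed to 29828 CPM in them, against 21396 in the normal cells and 35434 in all tumour fibroblasts. They had 1798 CPM of Il6 (1705 to 1894) and 12302 of Mgp, both above the normal level. For Mgp, the log2 fold of all tumour fibroblasts over the normal Xist cells alone was -0.045, against 1.04 over all 107. Their Col4a1, at 1668 CPM, and Gsn, at 6223, lay between the normal cells and the tumour fibroblasts as a whole. Inmt stood at 613 CPM (560 to 670), a level that the rule fixed as in the normal cells, and 26 of the 123 cells met it with 1 UMI. The median depth of the 123 was 6069 UMIs, against 7725 in the 107 normal cells and 10706 in the other non-adventitial tumour cells.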

How the data were processed

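Both libraries were made on the 10x Genomics platform. The authors deposited unnormalized UMI counts of 27998 genes in each barcode. They were made with Cell Ranger 3.1.0 on mm10, per the file headers and the submitters' processing notes. The libraries hold 5437 barcodes with 36675424 UMIs (normal) and 2942 with 33285044 (tumour), and share 4 barcodes, none of an Inmt-expressing cell. GFP and Cre are not listed as genes. The median depth was 7725 UMIs per Inmt-expressing cell and 835151 UMIs in their sum, where 1 UMI is 1.20 CPM.

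Counts were summed per group and scaled to 1000000 (CPM), with exact 95% Poisson intervals. Folds have exact conditional intervals and shares exact binomial ones (scipy 1.17.1). The intervals cover counting error, and mice may differ by more. A gene was called with at least 50 CPM in either sum, a fold of at least 2 and an interval that excluded 1, with 0 set to a floor of 3 counts. List medians took genes with at least 20 CPM. Fibroblasts were clustered with scanpy 1.11.5 (10000 per cell, log, 2000 variable genes, 30 components, 15 neighbours, Leiden at 0.5). Scrublet marked 2.19% of normal cells and 0.0777% of tumour cells; since the latter is too few, the 53 highest-scoring tumour cells took their place. Doublets were kept, and removed as an alternative. TMM factors came from edgeR 4.0.16 on the sums.

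The cells, the 31 gene lists and the 17 marker lists were chosen with earlier results of these data known. Of 1031 genes on the lists 1024 were found. The text draws on genes named by a rule: the genes that chose the cells and Pdgfra, the 30 highest and 20 lowest called genes against the other non-adventitial cells, 15 and 15 for the other 2 comparisons (with a UMI in at least 10% of cells of the higher group, without mitochondrial, ribosomal, sex-linked and unnamed genes), the 15 most abundant genes, and the 4 highest and 4 lowest of each list. The number of called genes fell short of 30, at 25. Gene positions came from GENCODE on GRCm38. The calculation was tested on simulated Poisson counts of the group sums. These hold no spread between cells, so they cannot test calls of genes concentrated in few cells. Alternatives changed the Inmt, matrix and adventitial thresholds, cell filters, depth, doublets, sex, scaling, weighting and CPM minimum.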

Additional observations from a re-analysis of the deposited data

Results flagged for a closer look

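For 4 genes the fold of Inmt-expressing over other non-adventitial fibroblasts went opposite ways in Xist and Y cells, with intervals on either side of 1. The difference between the sexes was not tested, and the Xist side rests on 19 cells. The intervals cover counting error and not the spread between cells. Ccl7 was among the 21 genes of like mean that were more unevenly spread than Inmt. Ccl7, a monocyte-attracting chemokine, was 5.33-fold higher (4.34 to 6.52) in Xist cells with 125 UMIs and at 0.313 times the level (0.192 to 0.484) in Y cells. Ccl2, a related chemokine, was 2.19-fold higher (1.67 to 2.82) in Xist cells and at 0.242 times in Y cells. Socs1, an inhibitor of cytokine signalling, was at 2.56 (1.58 to 3.98) and 0.204 times, the first from 23 UMIs and the second from 6. Adamts4, an aggrecan-cleaving protease, was at 2.20 (1.41 to 3.31) and 0.196 times, from 26 and 10 UMIs.

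Against adventitial fibroblasts 3 of these genes were split in the same way, with the same Inmt-expressing cells on one side. Ccl7 was at 4.83 times the adventitial level in Xist and 0.294 times in Y cells, Ccl2 at 2.69 and 0.441 times, and Socs1 at 4.57 and 0.218 times. This difference was not tested either.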

How the results depend on the processing

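The number of Inmt-expressing cells was set by the threshold: 286 cells passed at 1 per 10000 UMIs and 49 at 6, and 65 were Y cells and 19 Xist cells. Against the other non-adventitial fibroblasts, 10 genes were higher and 13 lower at a threshold of 1, of which 8 and 10 were called before, and 54 and 84 at a threshold of 6, of which 23 and 24 were. In Xist cells alone 140 were higher and 142 lower. With the adventitial sum limited to below 2 per 10000, 19 were higher and 31 lower, of which 14 and 16 were called before. With cells thinned to 5000 UMIs the counts were 25 and 33, but only 14 and 7 of the earlier calls were among them. Without the macrophage-led cluster, an alternative added after seeing the data, all 25 higher and 19 of the lower genes were called again. The cause of these changes was not tested.

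A minimum of 20 CPM gave 54 higher and 95 lower genes against the other non-adventitial cells, 507 and 396 against adventitial cells, and 641 and 1076 for tumour fibroblasts over Inmt-expressing cells. With no minimum these were 168 and 206, 898 and 564, and 865 and 1917. These minimums let in more genes, many with few UMIs. TMM scaling gave 715 higher and 237 lower genes in the tumour comparison, so the split between directions there depends on the scaling.

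Single genes changed direction in few cases. On the log2 scale, against the other non-adventitial cells, Ramp1 was at -0.051, Adgrd1 at -0.32 and Has1 at 0.27 in Xist cells alone. Retnla was at 0.45 in Y cells alone, and Rasl11a at 0.0086 with the Inmt threshold at 1. Car3 at 0.057 and Hp at 0.93 in Xist cells, and Slpi at 0.58 in Y cells, were set by the floor of 3 counts. So was Slpi at 0.76 with a stricter matrix gene limit. In each case the Inmt-expressing cells had no UMI, so no change of direction was seen. Thinning put Lyz2 at 0.014 and Wfdc17 at 0.73. Without the macrophage-led cluster Pf4 was at 0.080, Lyz2 at 0.16, Wfdc17 at 0.028 and Retnla at 0.17. In the tumour comparison Mgp was at -0.045 within Xist cells.

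The planned tumour comparison within Y cells gave no value, since the tumour library has none. No paired analysis was possible because each group is 1 library. Depth limits low genes: 1 UMI in the sum of the Inmt-expressing cells is 1.20 CPM.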

Other observations

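Sex went with other genes than Inmt among the non-adventitial fibroblasts. In 472 Y cells against 366 Xist cells Aspn, the leucine-rich proteoglycan asporin, stood at 171 against 50.7 CPM, 3.37-fold, Gdf10 at 338 against 136, Nmb at 156 against 63.1, the angiotensin-converting enzyme gene Ace at 200 against 81.8, and Lamc3 at 96.9 against 40.6. Postn, periostin, was lower in Y cells at 52.1 against 128 CPM, and Igfbp5, which binds insulin-like growth factors, at 66.3 against 141. The acinar genes Clps, Cela1 and Try4 were lower too, at 144 against 373, 49.1 against 108 and 60.2 against 126 CPM.

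The adventitial cells with Inmt of at least 3 per 10000 had 72 of 3347 genes higher (2.15%) and 80 lower (2.39%) than the other adventitial cells. Their number, 44, is lower than that of the Inmt-expressing cells, so the counts are not comparable. Gas1, a hedgehog-binding membrane protein gene, stood at 1327 against 324 CPM and Aoc3 at 92.7 against 23.0. Igfbp5 stood at 51.5 against 1432 CPM, Nov at 78.3 against 514 and Sfrp2 at 24.7 against 188. Adventitial cluster 4 had 110 CPM of Inmt and adventitial cluster 5 had 28.6. Rasl11a, a small GTPase gene, stood at 70.1 against 7.67 CPM here, whereas in the non-adventitial comparison it was lower with Inmt, at 40.7 against 89.4 CPM. The difference between these 2 folds was not tested.

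In the tumour library, cells that passed the whole rule had 169 of 3266 genes higher (5.17%) and 216 lower (6.61%) than the other non-adventitial fibroblasts. Besides Gdf10, Fmo2, a flavin monooxygenase gene, stood at 561 against 114 CPM, Gsta3, a glutathione transferase gene, at 172 against 38.9, and Bmp4 at 97.5 against 23.0. Lower were the contractile gene Tagln, at 15.2 against 1014 CPM, the collagen gene Col8a1, at 17.7 against 807, and Cthrc1, at 5.07 against 182. The cells that passed the rule were shallower, with a median of 6069 UMIs against 10706. The part of this depth in the differences was not tested.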
